A study of Mus musculus with 4 samples.

Results

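The nuclear genes for subunits of the mitochondrial respiratory chain were described across 4 arrays of epigonadal fat, a visceral white fat depot that lies next to the testis. Members were the genes whose single symbol in the array's annotation names a subunit of complex I (Nduf genes), II (Sdha to Sdhd), III (Uqcr genes and Cyc1), IV (Cox4 to Cox8 genes) or V (Atp5 genes), together with cytochrome c (Cycs). They were 82 of the 22180 genes on the array. All mice were male and were fasted before the tissue was taken. LDKO mice carried floxed Irs1 and Irs2 (the insulin receptor substrates) with Albumin-Cre, a recombinase made in hepatocytes, and were set against the Irs1/2-flox control, which has the same floxed genes with no Cre named. LTKO mice carried floxed Irs1, Irs2 and FoxO1 (a transcription factor restrained by insulin) with Albumin-Cre, and were set against the Irs1/2:FoxO1-flox control. Both Cre lines were studied at 4 months of age. No age is given for either control, so age cannot be told apart from genotype. The deletions are made in liver, not in fat, so these comparisons ask how fat differs when the liver lacks these genes, and the level of Irs1, Irs2 or FoxO1 in fat does not check the deletion. Each group has 1 array, from a single mouse or a pool, which is not stated. No difference below therefore has a test, an error or a p-value, and precision is limited by having 4 arrays in all.

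The respiratory chain passes electrons from NADH (complex I) and succinate (complex II) through ubiquinone to complex III, then by cytochrome c to complex IV, where oxygen is reduced. Complexes I, III and IV pump protons, and complex V, the ATP synthase, uses the gradient to make ATP. The chain is built from subunits encoded in the nucleus and, except for complex II, from a few encoded in mitochondrial DNA. In white fat the chain supports lipid synthesis and fat cell differentiation, and in brown fat it feeds heat production.

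Values are log2 signals, so 1 unit is 2-fold, and each difference is the Cre line minus the control without Cre unless stated. A gene was kept for counts where its highest array reached the median gene (5.15). Of the 82 members 73 did so, 69 of them on all 4 arrays and 4 (Cox4i2, Cox6b2, Cox7a1 and Cox7c) on some arrays only. The 9 members under it were Ndufs5, Ndufb11, Cox6a2, Cox7b2, Cox8c, Atp5g1, Atp5j2 and the pseudogenes Atp5c1-ps and Uqcrh-ps1. Complex I had 29 members past this filter, complex II 4, complex III 8, complex IV 16 and complex V 15, and cytochrome c stood alone. Ndufa4 and its paralog Ndufa4l2 were placed with complex IV, to which the Ndufa4 protein belongs despite its name. Ndufb2, Ndufb4, Ndufs6, Cox6c and Uqcr10 lie on probes with several symbols and are not members, a brighter probe of Ndufs5 is shared with a pseudogene and was not used, and Ndufb1 was not analysed here.

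Fat cell markers were bright on all 4 arrays, with a mean level over 13 genes of 10.90 in LDKO and 10.66 in its control, and 10.72 in LTKO and 10.77 in its control. Adiponectin (Adipoq) lay between 10.35 and 10.57, but the list was not flat. In LDKO 10 of 13 were above its control, 3 of them at least 1.5-fold, namely Slc2a4 (1.03), Lep (0.85) and Cebpa (0.61), and Plin4 was lower (−0.31). Over all 14 skeletal muscle markers measured, the mean level was 5.02 in LDKO and 5.83 in the Irs1/2-flox control, while LTKO and its own control had 4.97 and 5.09. Over 10 mesothelium markers it was 6.75 in LDKO and 7.44 in the Irs1/2-flox control, while LTKO and its own control had 6.89 and 6.85. The Irs1/2-flox control array, against which LDKO is set, thus stood apart from the other arrays in both lists. Of 12 macrophage markers 11 were lower in LDKO (median −0.33) and 11 in LTKO (−0.34). Of 7 stromal progenitor markers 6 were lower in LDKO (−0.25) and 6 in LTKO (−0.15). Among all genes past the filter, 43.3% were higher in LDKO and 43% in LTKO. All 8 T and NK cell markers measured, of which 3 passed the filter, were higher in LDKO (median 0.24), and 6 were lower in LTKO (−0.40). The LTKO array stood apart in 3 other lists. Over all markers measured, the mean level in LTKO and in its control was 5.89 and 4.42 for 9 testis and sperm markers, 5.42 and 3.53 for 8 epididymis markers, and 6.95 and 5.61 for 10 liver markers. The part of these signals in the results below was not tested. Fewer cells of a type and less RNA per cell cannot be told apart in such bulk samples.

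Subunit genes of all 5 complexes were mostly higher in LDKO fat than in the Irs1/2-flox control. Of the 73 members past the filter, 69 were higher, while 43.3% of all 11958 genes past it were. The median difference was 0.38 (1.30-fold) over the members and −0.04 over all genes past the filter. At least 1.5-fold higher were 15 of the 73, against a background of 2.76%, and 2 of these, Cycs and Ndufb3, were 2-fold higher. None of the 73 was 1.5-fold lower, where the background was 3.81%. Over all 82 members, dim ones included, 73 were higher and the median was 0.36.

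In LTKO fat the members lay near their control. Of the 73, 23 were higher than in the Irs1/2:FoxO1-flox control, where 43% of all genes were, and the median was −0.06, beside −0.03 over all genes. None was 1.5-fold higher (background 3.43%) or 1.5-fold lower (0.861%). With LTKO set directly against LDKO, 8 of 73 were higher (background 57.2%), the median was −0.30, none was 1.5-fold higher (5.34%) and 5 were 1.5-fold lower (2.55%): Cycs, Ndufb3, Cox7b, Cyc1 and Sdhc. These comparisons share arrays, so their values are given side by side and not as independent checks. Cox4i2 and Cox6b2, which passed the filter only through the LTKO array, are among the members counted as higher in LTKO in both comparisons.

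**Figure D1:**
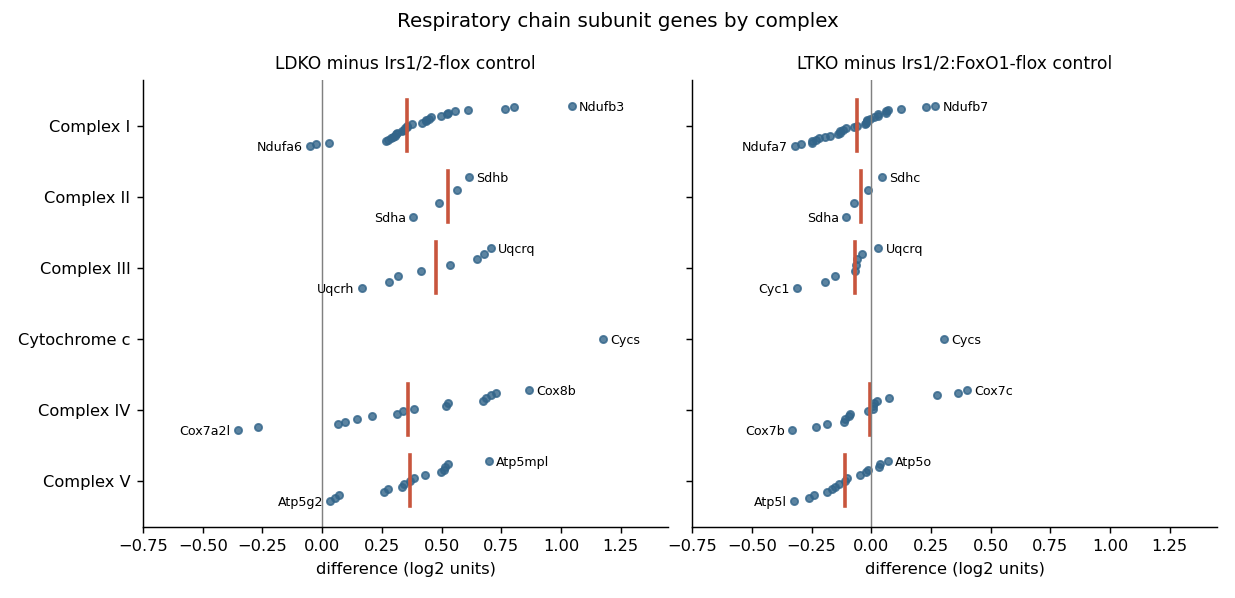
Differences of the 73 members past the filter, in log2 units, by complex, for LDKO minus the Irs1/2-flox control (left) and LTKO minus the Irs1/2:FoxO1-flox control (right). Each point is a gene, spread vertically by rank, red bars are medians, and the lowest and highest gene of each complex is named. The LDKO medians of complexes I to V lie between 0.36 and 0.53 and the LTKO medians between −0.11 and −0.0033.

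Cytochrome c, the soluble carrier between complexes III and IV, stood furthest from its control. Cycs was 11.39 in LDKO and 10.21 in the Irs1/2-flox control, and 10.43 in LTKO and 10.12 in the Irs1/2:FoxO1-flox control. LDKO was thus the high array and the other arrays lay within 0.30 of each other. The difference was 1.18 (2.26-fold), and 1.26 against the Irs1/2:FoxO1-flox control. Cycs has 5 probes with its symbol alone, and all 5 were above the Irs1/2-flox control in LDKO, by 0.76 to 1.59, and above the Irs1/2:FoxO1-flox control in LTKO, by 0.02 to 0.30. A pair of these probes had equal values on every array, so they are not separate measurements. Cytochrome c has many processed pseudogenes in the mouse, and which copies each probe reads was not tested. Cyct, the testis form of cytochrome c, stayed between 3.15 and 3.31 on all 4 arrays.

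**Figure D2:**
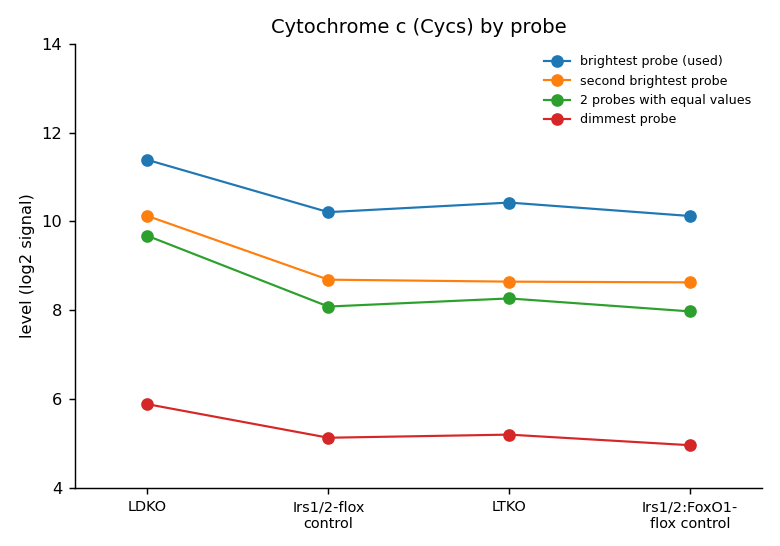
Log2 signal of the Cycs probes on the 4 arrays, with lines joining the values of a probe. The pair with equal values is drawn once, and every probe is highest in LDKO, with 11.39 for the brightest and 5.88 for the dimmest.

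Promoters of respiratory chain genes are known for sites of the factors NRF1 and GABP (also called NRF2, of the ETS family), and cytochrome c also for CREB sites. The RefSeq windows below (GRCm38.p6, 250 bases before to 50 after a start site) belong to 5 of the 15 members at least 1.5-fold higher in LDKO, picked as examples after the matches were seen. Of these 15, 11 have a window, of which 6 hold a searched motif (Cycs, Ndufa11, Uqcrc1, Sdhb, Cox5b and Cox6b1) and 5 hold none (Ndufb3, Ndufa1, Cox8b, Cox7b and Cox5a). The share of all members with a window that hold any searched motif was not counted. These counts are thus a description only and do not show the 15 to be rich in motifs. Shown are 4 with a motif and Ndufb3, the other member 2-fold higher, without one. They are Cycs at chr6:50566520-50566819 (minus strand), Ndufa11 at chr17:56717512-56717811 (plus), Uqcrc1 at chr9:108936398-108936697 (plus), Sdhb at chr4:140961021-140961320 (plus) and Ndufb3 at chr1:58586147-58586446 (plus). Capitals mark matches on either strand.
Cycs: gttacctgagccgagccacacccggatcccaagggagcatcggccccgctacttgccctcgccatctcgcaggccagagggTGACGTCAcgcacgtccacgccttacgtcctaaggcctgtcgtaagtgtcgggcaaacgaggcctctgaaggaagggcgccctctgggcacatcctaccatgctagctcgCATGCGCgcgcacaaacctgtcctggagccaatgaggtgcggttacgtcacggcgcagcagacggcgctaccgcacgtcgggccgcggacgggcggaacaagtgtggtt
Ndufa11: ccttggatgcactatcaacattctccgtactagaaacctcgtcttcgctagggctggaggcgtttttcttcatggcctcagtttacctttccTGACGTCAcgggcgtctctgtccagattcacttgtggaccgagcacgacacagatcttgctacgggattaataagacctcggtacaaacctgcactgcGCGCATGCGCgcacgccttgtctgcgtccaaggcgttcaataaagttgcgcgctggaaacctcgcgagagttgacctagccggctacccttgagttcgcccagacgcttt
Uqcrc1: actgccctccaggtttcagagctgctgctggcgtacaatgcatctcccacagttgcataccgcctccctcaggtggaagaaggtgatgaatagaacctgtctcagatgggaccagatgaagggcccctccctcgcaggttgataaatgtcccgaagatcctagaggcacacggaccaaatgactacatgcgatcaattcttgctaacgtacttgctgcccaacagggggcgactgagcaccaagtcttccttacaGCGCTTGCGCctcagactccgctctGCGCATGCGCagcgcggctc
Sdhb: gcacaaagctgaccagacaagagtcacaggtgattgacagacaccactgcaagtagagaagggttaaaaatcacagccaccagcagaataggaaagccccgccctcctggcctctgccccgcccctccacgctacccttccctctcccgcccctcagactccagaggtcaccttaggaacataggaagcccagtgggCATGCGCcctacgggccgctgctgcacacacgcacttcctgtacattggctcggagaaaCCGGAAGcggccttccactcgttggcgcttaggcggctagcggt
Ndufb3: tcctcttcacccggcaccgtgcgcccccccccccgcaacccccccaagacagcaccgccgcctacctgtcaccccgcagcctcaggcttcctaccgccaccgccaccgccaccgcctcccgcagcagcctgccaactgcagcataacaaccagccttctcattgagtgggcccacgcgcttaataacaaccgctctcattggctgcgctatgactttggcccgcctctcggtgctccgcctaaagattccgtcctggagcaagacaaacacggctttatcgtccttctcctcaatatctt
In Cycs the capitals are TGACGTCA, the cyclic AMP response element, and CATGCGC, a core of the NRF1 motif. Ndufa11 holds TGACGTCA and the whole NRF1 motif, which is CATGCGC with GCG before it. Uqcrc1 holds that motif once whole and once in a looser form, GCGCA and GCGC parted by any 1 base, and Sdhb holds CATGCGC and the ETS motif CCGGAAG. The whole NRF1 motif also fits the looser form and contains CATGCGC, so a whole match counts under all 3.

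RefSeq windows matched 65 of the 82 members, in 70 windows. The whole NRF1 motif was in 7.14% of the member windows and in 0.971% of all 32851 windows, and its looser form in 22.9% and 4.603%. CCGGAAG was in 24.3% and 8.86%, the estrogen-related receptor motif AAGGTCA in 8.57% and 4.72%, and the YY1 motif ATGGCGGC in 8.57% and 2.24%. Chosen after the sequences were seen, CATGCGC was in 20% and 3.91%, and TGACGTCA in 5.71% and 1.79%. The windows were not matched on base composition. The LDKO difference had a median of 0.53 over the 5 members past the filter with the whole NRF1 motif and 0.38 over the 55 without it. With the looser form the order was the other way, 0.35 over 14 with it and 0.40 over 46 without it. The median was 0.34 over the 17 with CCGGAAG and 0.39 over the 43 without it. For AAGGTCA it was 0.51 over 5 with it and 0.38 over 55 without it, and for ATGGCGGC 0.43 over 5 and 0.38 over 55. For CATGCGC it was 0.52 over 14 with it and 0.37 over 46 without it, and for TGACGTCA 0.57 over 4 and 0.37 over 56. CATGCGC and TGACGTCA were chosen after the sequences were seen, and both lie in the windows of Cycs and Ndufa11, which are high in LDKO. Their medians therefore cannot serve as a check, unlike those of motifs set beforehand. These are descriptions of letters, and no match says only that a motif is not in that window.

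Complex I, the NADH dehydrogenase, had a median difference of 0.36 in LDKO, with 27 of 29 members higher, and of −0.06 in LTKO, with 9 of 29 higher. Ndufb3, an accessory subunit of the membrane arm, was 7.90 in LDKO and 6.85 in the Irs1/2-flox control, and 6.94 in LTKO and 6.96 in the Irs1/2:FoxO1-flox control. As with Cycs, LDKO alone was high, by at least 0.94 over each other array. Ndufs1, the large iron-sulfur core subunit, was 8.998 in LDKO and 8.20 in its control, and 8.48 in LTKO and 8.60 in its control. Here the Irs1/2-flox control was also the lowest array, and its LDKO difference of 0.80 was 0.40 against the Irs1/2:FoxO1-flox control. Ndufa1, a membrane arm subunit encoded on the X chromosome, had the same order, with 8.30 in LDKO and 7.54 in its control, and 7.86 in LTKO and 7.99 in its control. Ndufa11, also of the membrane arm, was higher by 0.61 in LDKO, and its other probe by 0.48. In LTKO its probes pointed opposite ways, at 0.23 and −0.56.

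The 6 core subunits that carry the flavin and the iron-sulfur clusters or frame the ubiquinone site were all above the Irs1/2-flox control in LDKO and all below the Irs1/2:FoxO1-flox control in LTKO. Ndufv1, which binds NADH and the flavin, was 8.43 in LDKO and 7.90 in its control, and 8.17 in LTKO and 8.19 in its control. Ndufv2 differed by 0.44 in LDKO and −0.07 in LTKO, and Ndufs3 by 0.34 and −0.29. Ndufs8 differed by 0.30 and −0.23, and Ndufs7 by 0.30 and −0.19, but Ndufs7 was highest in the Irs1/2:FoxO1-flox control, at 9.48. By position in the complex, the LDKO medians were 0.39 over these 6 core subunits, 0.33 over 8 accessory subunits of the matrix arm, 0.40 over 8 of the proximal and 0.45 over 7 of the distal membrane arm. The LTKO medians were −0.16, −0.12, −0.07 and 0.06 in the same order. The members with the smallest LDKO differences were Ndufa6 at −0.05, Ndufc1 at −0.03 and Ndufa7 at 0.03. Ndufa7, a matrix arm subunit, also had the lowest LTKO difference of complex I (−0.32). Its Irs1/2:FoxO1-flox control value was 7.03, and the other arrays lay between 6.70 and 6.73. Ndufb7 was the highest in LTKO (0.27), and its low array was the Irs1/2:FoxO1-flox control.

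Complex II, succinate dehydrogenase, is the only complex built wholly from nuclear genes, and its 4 members had the highest LDKO median of the complexes, 0.53. Sdhb, the iron-sulfur subunit, was 8.59 in LDKO and 7.98 in its control, and 8.17 in LTKO and 8.19 in its control. Sdhc, a membrane anchor, was 8.80 in LDKO and 8.23 in its control, and 8.18 in LTKO and 8.14 in its control, so LDKO alone was high. Sdhd, the other anchor, differed by 0.49 in LDKO and −0.07 in LTKO, and Sdha, the flavoprotein, by 0.38 and −0.10. All 4 were highest in LDKO. The LTKO median was −0.04.

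All 8 members of complex III, the cytochrome bc1 complex, were higher in LDKO than in every other array, with a median difference of 0.48. Uqcrq, a small accessory subunit, was 6.09 in LDKO and 5.38 in its control, and 5.56 in LTKO and 5.53 in its control. Cyc1, the cytochrome c1 that hands electrons to cytochrome c, was 7.39 in LDKO and 6.72 in its control, and 6.68 in LTKO and 6.99 in its control. Cyc1 thus had its lowest value in LTKO, and its LTKO difference of −0.31 was the lowest of the complex. Uqcrc1, a core protein, was higher by 0.65 in LDKO, the Rieske iron-sulfur protein Uqcrfs1 by 0.53 and the second core protein Uqcrc2 by 0.42. The smallest were Uqcr11 at 0.28 and Uqcrh at 0.17. In LTKO 1 of the 8 was higher than in its control, Uqcrq by 0.03, and the median was −0.07.

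Complex IV, cytochrome c oxidase, was the most varied. Its nuclear subunits surround a catalytic core encoded in mitochondrial DNA, and several come as isoforms of different tissues. Of 16 members, 14 were higher in LDKO (median 0.36) and 8 in LTKO (median −0.0033). Among these 8 are Cox4i2 and Cox6b2, which passed the filter only through the LTKO array, so their direction there is no finding. With the filter at the 70th percentile the LTKO median of complex IV was −0.050. Cox5b was 9.63 in LDKO and 8.90 in its control, and 9.15 in LTKO and 9.14 in its control. Cox5a was 8.09 in LDKO and 7.42 in its control, and 7.83 in LTKO and 7.84 in its control. These subunits are found in every tissue, and for both the Irs1/2-flox control was the low array and LDKO the high one. Cox7b was higher by 0.71 in LDKO and had the lowest LTKO difference of all members, −0.33, and Cox6b1 differed by 0.69 in LDKO and −0.10 in LTKO. The dimmer probes of Cox5b and Cox7b gave smaller LDKO differences, 0.27 and 0.26.

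Isoforms of the same subunit differed by unlike amounts. Cox8b, a muscle and brown fat isoform, was 6.05 in LDKO and 5.19 in its control, and 5.77 in LTKO and 5.76 in its control, whereas the widespread form Cox8a differed by 0.14 in LDKO and −0.11 in LTKO. The Cox8b difference of 0.87 was 0.30 against the Irs1/2:FoxO1-flox control, and the Irs1/2-flox control was the low array. Cox7a1, of heart, muscle and brown fat, differed by 0.38 in LDKO and −0.19 in LTKO, and Cox7a2 by 0.52 and 0.01. Cox6a1 differed by 0.31 and −0.09, while its muscle form Cox6a2 was under the median gene on every array, at 5.02 in LDKO and 4.74 in its control, and 4.45 in LTKO and 4.38 in its control. The brown fat gene Cidea was 7.43 in LDKO and 5.97 in its control, and 6.93 in LTKO and 7.22 in its control, so here too the Irs1/2-flox control was the low array. Ucp1 was 4.83 in LDKO and 5.24 in its control, and 5.05 in LTKO and 5.80 in its control. Over all 10 brown and beige fat markers measured, which include Cox8b and Cox7a1, the mean level was 5.11 in LDKO and 4.87 in its control, and 5.08 in LTKO and 5.21 in its control.

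Cox4i1 differed by 0.34 in LDKO and −0.11 in LTKO. Its isoform Cox4i2, known from lung, differed by 0.10 and 0.28, and Cox6b2, a testis form of Cox6b1, by 0.21 and 0.36. For both isoforms only the LTKO array, at 5.18 and 5.37, reached the median gene, which is also the array high in testis markers, and the part of that signal in the result was not tested. The testis forms Cox8c and Cox7b2 stayed dim, at no more than 3.67 and 2.85. Cox7c, with 5.47 in LDKO and 5.41 in its control, and 5.52 in LTKO and 5.12 in its control, had the highest LTKO difference among members past the filter, 0.40, with the Irs1/2:FoxO1-flox control as the low array. The lowest LDKO difference past the filter was that of Cox7a2l, an assembly factor of respiratory supercomplexes. It was 6.53 in LDKO and 6.89 in its control, and 6.55 in LTKO and 6.47 in its control, so the Irs1/2-flox control alone was high. Ndufa4l2, known as a hypoxia-induced gene, was lower in both lines, with differences of −0.27 in LDKO and −0.23 in LTKO, while Ndufa4 differed by 0.53 and 0.03.

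All 15 members of complex V past the filter were higher in LDKO (median 0.37), but only Atp5mpl was 1.5-fold higher. Atp5mpl, a small proteolipid of the membrane sector, was 8.21 in LDKO and 7.51 in its control, and 7.79 in LTKO and 7.93 in its control. In the catalytic F1 head, Atp5a1 (alpha) differed by 0.43 in LDKO and −0.11 in LTKO, Atp5b (beta) by 0.39 and −0.01 and Atp5c1 (gamma) by 0.37 and −0.26. Atp5e (epsilon) differed by 0.26 and −0.16, and Atp5d (delta) by 0.05 and −0.24, although the other Atp5d probe gave 0.60 in LDKO. The median was 0.37 over these 5 head and central stalk subunits, 0.31 over the 4 of the peripheral stalk and 0.51 over 4 of the membrane sector. In that sector Atp5k (subunit e), Atp5g3 (a form of the ring subunit c) and Atp5l (subunit g) were higher by 0.53, 0.51 and 0.51 in LDKO. Another form of subunit c, Atp5g2, had the smallest difference, 0.03, and was highest in the Irs1/2:FoxO1-flox control, at 10.10. The third form, Atp5g1, stayed under the median gene at 4.46 in LDKO and 4.67 in its control. In LTKO 3 of 15 were higher than in the control and the median was −0.11, with Atp5l at −0.32 and Atp5o, the stalk subunit that confers oligomycin sensitivity, at 0.07.

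**Figure D3:**
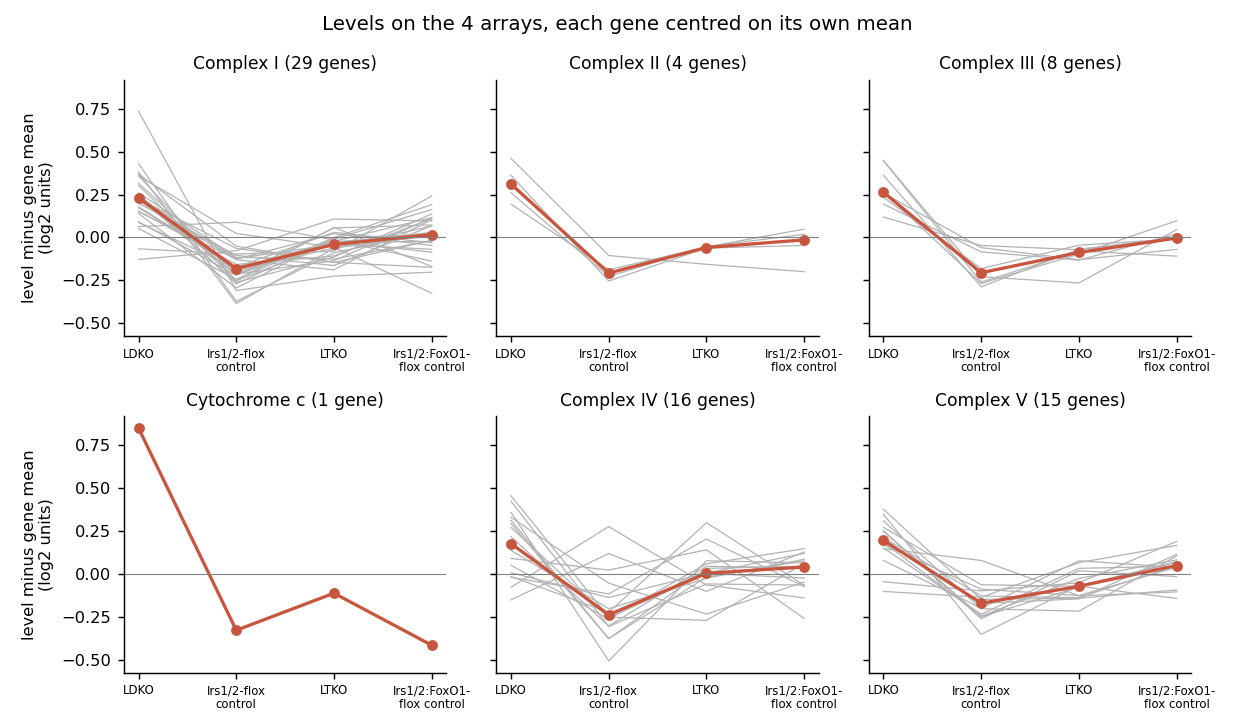
Level of each member past the filter minus its own mean over the 4 arrays, in log2 units, with 1 panel per complex. Grey lines join the values of a gene, and red points are medians over the genes of a panel. The LDKO medians lie between 0.18 and 0.31 for complexes I to V and at 0.85 for cytochrome c, and the Irs1/2-flox control is the lowest median in all panels but that of cytochrome c.

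The size of these differences depended on the control array. LDKO was the highest of the 4 arrays for 58 of the 73 members (background 22.7%), and the Irs1/2-flox control was the lowest for 49 (background 23.7%). Both held for 39 (background 8.65%), among them 17 of 29 in complex I, 3 of 4 in complex II, 4 of 8 in complex III, 7 of 16 in complex IV and 8 of 15 in complex V. Between the controls, 63 of 73 members were higher in the Irs1/2:FoxO1-flox control than in the Irs1/2-flox control (background 54.6%), with a median of 0.23 and none 1.5-fold higher (1.98%) or lower (2.63%). Against the Irs1/2:FoxO1-flox control, 63 of 73 members were higher in LDKO (background 40.6%), with a median of 0.20, beside −0.07 over all genes past the filter. The complex medians there were 0.20 for complex I, 0.33 for complex II, 0.28 for complex III, 0.21 for complex IV and 0.16 for complex V. Cycs and Ndufb3 were the 2 members at least 1.5-fold above both controls, where 0.97% of all genes were. In LTKO the direction depended on the control, since 52 of 73 members were higher than in the Irs1/2-flox control (background 51.7%), with a median of 0.15.

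**Figure D4:**
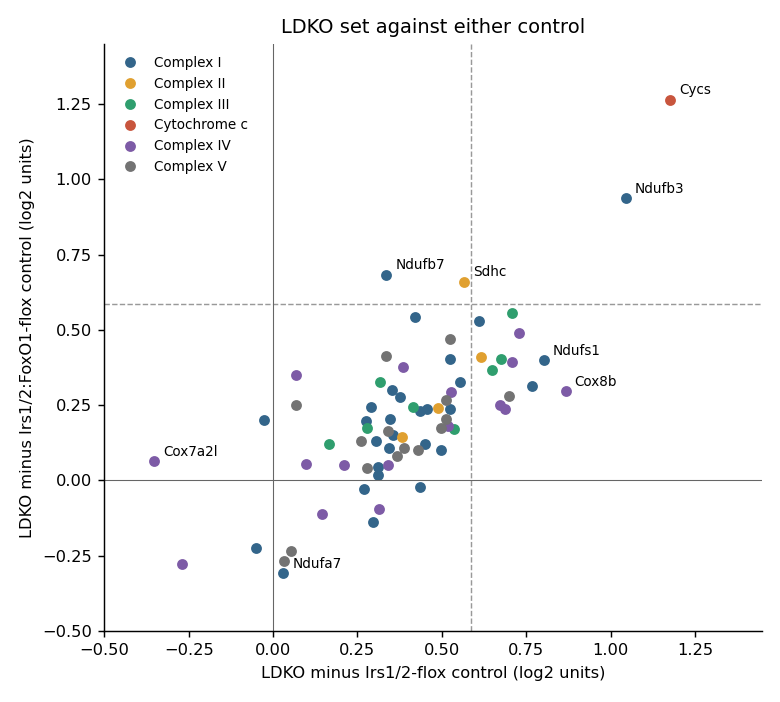
Each member past the filter by its LDKO difference from the Irs1/2-flox control (horizontal) and from the Irs1/2:FoxO1-flox control (vertical), in log2 units, coloured by complex, with dashed lines at 1.5-fold. Both axes share the LDKO array. Cycs (1.18 and 1.26) and Ndufb3 (1.05 and 0.94) lie past both lines, while Cox8b (0.87 and 0.30) and Ndufs1 (0.80 and 0.40) lie past the first alone.

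Other genes of the mitochondrion were read from lists in the same way. All 12 TCA cycle genes past the filter were higher in LDKO (median 0.54), 5 of them at least 1.5-fold, while 2 were higher in LTKO than in its control (median −0.14). The isocitrate dehydrogenase gene Idh3a was 10.08 in LDKO and 9.19 in its control, and 9.49 in LTKO and 9.63 in its control. Citrate synthase (Cs) differed by 0.80 in LDKO and −0.12 in LTKO, and fumarase (Fh1) by 0.67 and −0.18. Against the Irs1/2:FoxO1-flox control, 10 of the 12 were higher in LDKO and the median was 0.13, and Dlst and Suclg2 were lower.

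Factors that build the complexes had lower LDKO medians than the subunits. Of 20 complex IV assembly genes, 17 were higher in LDKO (median 0.28), none by 1.5-fold, led by the copper chaperone Cox19 at 0.51, Cmc2 at 0.51 and the heme A synthase Cox15 at 0.48. Of 14 complex I assembly genes, 9 were higher (median 0.14), with Acad9 at 0.86, Foxred1 at 0.48 and Ndufaf7 at 0.43. Of 8 for complexes II and III, 5 were higher (median 0.07), led by Bcs1l at 0.49, Sdhaf3 at 0.32 and Uqcc2 at 0.22. All 4 for complex V were higher (median 0.18), with Atpaf2, which helps assemble the F1 head, at 0.89, Tmem70 at 0.22 and the inhibitor Atpif1 at 0.14. In LTKO the medians of these 4 lists were −0.07, −0.03, −0.09 and −0.14 in that order. Against the Irs1/2:FoxO1-flox control the LDKO medians were 0.04, 0.09, −0.06 and 0.14 in the same order.

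Genes known to drive mitochondrial biogenesis were not higher as a group. Of 13 past the filter, 4 were higher in LDKO (median −0.06) and 6 in LTKO (median −0.08), and none was 1.5-fold apart in either. The coactivator Ppargc1a was 6.01 in LDKO and 6.48 in its control, and 7.07 in LTKO and 6.88 in its control, so LDKO was the lowest array. Tfam, the transcription factor of mitochondrial DNA, was also lowest in LDKO, at 5.24 against 5.67 in its control, and was 5.79 in LTKO and 5.71 in its control. The orphan receptor gene Esrrg differed by 0.35 in LDKO and 0.36 in LTKO. Of 10 genes of mitochondrial DNA upkeep and transcription, 7 were higher in LDKO (median 0.05), with the protease Lonp1 at 0.53, Mterf3 at −0.33 and the RNA polymerase Polrmt at 0.22.

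Of 17 genes that feed electrons to the chain or make ubiquinone, 10 were higher in LDKO (median 0.06). Coq7, an enzyme of ubiquinone synthesis, differed by 0.75, and Etfb and Etfdh, which pass electrons from fatty acid oxidation, by 0.61 and 0.49. Of 8 genes of ATP export and uncoupling, 6 were higher (median 0.13), with the ADP/ATP carrier Slc25a5 at 0.47, Ucp3 at −0.65 and Ucp1 at −0.41. Ucp3 was 6.53 in LDKO and 7.18 in its control, and 7.51 in LTKO and 7.61 in its control, so it was lowest in LDKO. Of 16 genes of protein import and cristae, 11 were higher (median 0.13), led by the cristae organiser Immt at 0.68, Chchd3 at 0.55 and the fusion gene Opa1 at 0.42. The LTKO medians were −0.10 for mitochondrial DNA upkeep, −0.12 for electron feeders, −0.03 for ATP export and −0.06 for import. With the Irs1/2:FoxO1-flox control as reference, the LDKO medians were 0.00 for mitochondrial DNA upkeep, −0.15 for electron feeders, 0.02 for ATP export, 0.03 for import and −0.16 for the regulators of biogenesis. Subunits encoded in mitochondrial DNA were not analysed here.

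**Figure D5:**
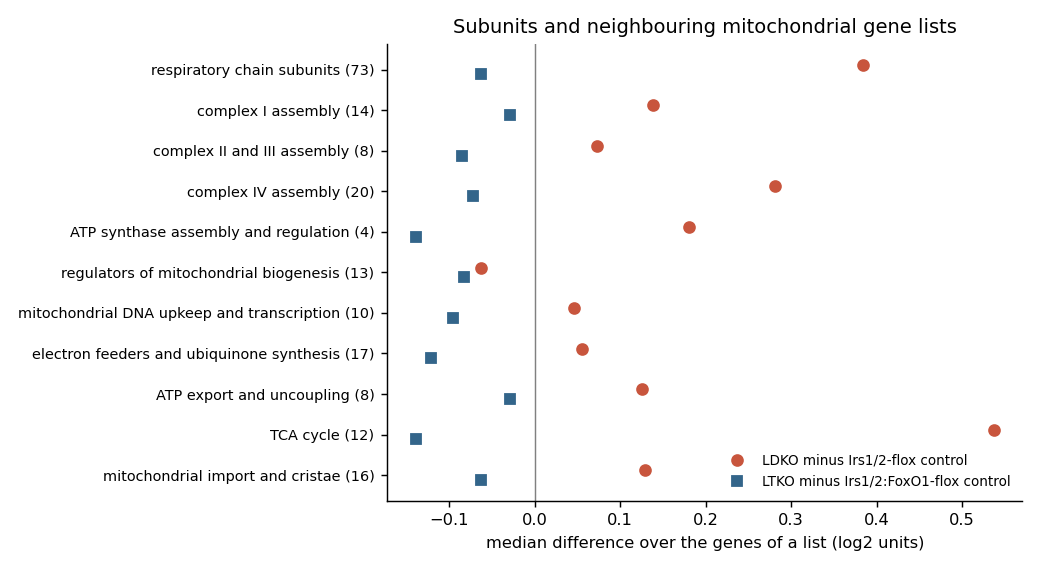
Median difference, in log2 units, over the genes of each list past the filter (number in brackets), for LDKO minus the Irs1/2-flox control (circles) and LTKO minus the Irs1/2:FoxO1-flox control (squares). The subunits are at 0.38 in LDKO and the TCA cycle at 0.54, while the regulators of biogenesis are at −0.06.

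The members' median pattern, each gene centred on its own mean, was 0.23 in LDKO and −0.20 in the Irs1/2-flox control, and −0.06 in LTKO and 0.03 in the Irs1/2:FoxO1-flox control. Ndufv2 lay closest to it, at a root mean square distance of 0.01, and Cycs (0.39), Cox7a2l (0.30) and Ndufb3 (0.29) furthest. Among 6871 other genes past the filter with a range of at least 0.3, those nearest to this pattern over the 4 arrays included the mitochondrial ribosomal protein gene Mrpl34 (distance 0.01), Carmil3 (0.02), Poldip2 (0.02), Cog2 (0.02), the dUTPase gene Dut (0.02) and Get3 (0.02). The other nearest were Mir3067, Gm16523, Mblac2 and Fam110a, at 0.01 to 0.03. With 4 arrays, such closeness is a description only.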

How the data were processed

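RNA of fasted male mice was hybridised to Affymetrix whole-transcript arrays, 1 for each of 4 groups taken from the source names, per the labels' protocols. The authors deposited log2 values by probe set, with the scale read from the values. The submitters' processing notes name RMA and Affymetrix Expression Console. RMA corrects background, quantile-normalizes arrays and summarises probes. It removes shifts of all genes together and compresses differences of dim probes. Neither the version nor the set of arrays normalized together is given in the sources used here. Array medians were 4.73 (LDKO), 4.70 (Irs1/2-flox control), 4.69 (LTKO) and 4.68 (Irs1/2:FoxO1-flox control).

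Of 41345 probes, 23521 have 1 symbol, 1814 several and 16010 have none here. Symbols were updated by gene identifier to GRCm38.p6 (23328 probes matched). A gene was its probe with the highest mean. Differences of log2 values were counted at 1.5-fold among the 11958 genes whose highest array reached 5.15, with no test. Named were, per complex, the 4 largest and 2 smallest LDKO differences, the largest and smallest LTKO difference, core complex I subunits, complex II, Cycs, Cyc1, Cox isoform pairs, F1 subunits and up to 3 genes a list. Further members and marker genes were chosen after their values were seen. The members and lists were chosen with earlier results of these data known. Steps were checked on simulated data. The software was numpy 2.4.6, pandas 2.3.3, statsmodels 0.14.6 and matplotlib 3.10.9 under Python 3.11.15. Alternatives are given in the closing section.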

Additional observations from a re-analysis of the deposited data

Results flagged for a closer look

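The LDKO and LTKO medians of the chain, each against its own control, had opposite signs, but those in LTKO were small. With 1 array per group the difference between them was not tested. Over the 73 members past the filter the medians were 0.38 in LDKO and −0.0621 in LTKO. Over all genes past the filter they were −0.04 and −0.03. The member medians were 0.36 and −0.0590 in complex I, 0.53 and −0.0435 in complex II, and 0.48 and −0.0661 in complex III. They were 0.36 and −0.0033 in complex IV, and 0.37 and −0.109 in complex V. In LTKO the complex IV median was 0.010 after quantile normalization again and 0.037 with a loess curve removed. With the filter at the 70th percentile it was −0.050. The loess step left the LTKO median over all members past the filter at −0.020. The signs were opposite at 52 members. Of these, 49 were higher in LDKO and lower in LTKO and 3 the other way (Ndufa6, Ndufc1 and Cox7a2l). Over all genes past the filter, 43.3% were higher in LDKO and 43% in LTKO. The share of all genes with opposite signs was not counted, so the counts over members are a description only. Cycs was higher in both lines, by 1.18 and 0.30. The LTKO sign rests on its own control. With the Irs1/2-flox control its medians were above 0 for the members (0.15) and all 5 complexes, and with the mean of both controls for the members (0.044) and for all complexes but III.

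The 10 probes that carry a subunit symbol together with another symbol entered no comparison. Of these, 9 were higher in LDKO than in both controls and 3 were higher in LTKO than in both. The brighter Cox6c probe was 10.44 in LDKO and 9.95 in its control, and 10.23 in LTKO and 10.37 in its control, and the Uqcr10 probe was 6.06 in LDKO and 5.55 in its control. The exception was the probe shared by Ndufs1 and Ino80dos, with 4.83 in LDKO and 5.13 in its control. The share of all genes above both controls was not counted. The probes are also not separate genes, since Cox6c and Ndufs6 recur among them, and Ndufs1, Ndufs5 and Uqcrb are members through other probes.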

How the results depend on the processing

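Both the control and the fold limit moved the counts. For LDKO, the Irs1/2:FoxO1-flox control as reference gave 4 members at least 1.5-fold higher and a median of 0.20, and the mean of both controls gave 6, against 15 with its own control. For LTKO, the Irs1/2-flox control gave 52 members higher and a median of 0.15, with complex medians of 0.15 (I), 0.15 (II), 0.056 (III), 0.25 (IV) and 0.047 (V). The mean of both gave 47 higher and a median of 0.044, with 0.044 (I), 0.033 (II), 0.13 (IV) and 0.011 (V), so the LTKO direction turned, except in complex III (−0.029). The cause was not tested. For the pathway lists, the other control was an alternative chosen after seeing the data. It turned the LDKO median of complex II and III assembly (−0.0597) and of electron feeders (−0.145). It turned the LTKO medians of complex I assembly (0.033), complex IV assembly (0.178), ATP synthase assembly (0.103), mitochondrial DNA upkeep (0.00751), electron feeders (0.0528), ATP export (0.112), the TCA cycle (0.229) and import (0.0506). At 2-fold, 2 members were higher in LDKO and 0 lower in LTKO than in LDKO. At a limit of 0.32 on the log2 scale, 48 were higher and 1 lower in LDKO, 2 higher and 1 lower in LTKO, 16 higher and 2 lower between the controls, and 33 lower in LTKO than in LDKO. With the filter at the 70th percentile, 4 members were higher in LTKO than in LDKO. With that filter the LDKO medians were 0.53 for complex II, 0.52 for complex IV and 0.42 for complex III, so the order of the complexes depended on it. The other 95 summary values under these alternatives stayed within 1.5 times their reported value or within 0.05 of it. Quantile normalization again, and removal of a loess curve (span 0.3), kept all 20 calls of members at 1.5-fold, and averaging the probes of each gene lost 4. No paired analysis was possible because each group has 1 array. Depth does not apply to arrays, and 9 dim members have differences that RMA compresses.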
